A study of Mus musculus with 8 samples.

Results

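Annexins are proteins that bind negatively charged membrane phospholipids when calcium rises, through a conserved core of repeats, while their N-terminal tails differ and dock partners such as S100 proteins. They act in vesicle traffic, plasma membrane repair, control of blood clotting and plasmin formation at the cell surface, and the resolution of inflammation. In the pancreas, several of them are known from duct epithelium and from ductal tumours, whereas others are broadly expressed.

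The genes described here are the 10 annexins Anxa1, Anxa2, Anxa3, Anxa4, Anxa5, Anxa6, Anxa7, Anxa8, Anxa11 and Anxa13, taken by symbol from 29621 mouse genes with a transcript in the deposited quantifications. A further 2 annexin genes in the files, Anxa9 and Anxa10, lie outside this list and are given for completeness. RNA was sequenced from whole pancreas of C57BL/6 mice at postnatal day 42, with 4 libraries per genotype. KPC-OG mice carried p48-Cre, an oncogenic allele that Cre switches on, Trp53fl/fl and R26tm1(LSL-OG), an allele at the Rosa26 locus that Cre also switches on. KPC mice carried the same p48-Cre, oncogenic allele and Trp53fl/fl without R26tm1(LSL-OG). Every mouse of both genotypes was thus tumour-prone, no tissue without the oncogenic allele was used here, and Cre was driven from the p48 (Ptf1a) locus. Whether the 4 libraries of a genotype are 4 animals is not stated in the labels, and a p-value here reflects library-to-library spread, which may be technical.

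The libraries held 13671606 to 18292115 estimated reads in KPC-OG and 7373286 to 11292570 in KPC. The acinar marker genes were present in every library, with summed levels of 26159 to 68784 CPM (counts scaled to library size) in KPC-OG and 148945 to 284553 CPM in KPC, so the tissue label held. KPC-OG 2 and KPC-OG 3 stood apart. Summed liver and gut markers reached 218 CPM in the first of these and 241 CPM in the other, against 13.5 to 27.9 CPM over the KPC libraries, and the remaining KPC-OG libraries lay within that KPC range. On the CPM scale, the KPC-OG 3 library also had the most acinar and the least duct and fibroblast marker RNA of its group. Its summed duct markers were at 654 CPM, against 1052 to 1246 CPM in the other KPC-OG libraries. All CPM values are scaled by TMM, the trimmed mean of M-values, which centres the comparison on the typical gene, and log2 fold changes, given ± standard error, are positive where KPC-OG was higher.

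Most of the family was higher in the pancreas with the OG allele. Of the 10 annexins, all of which passed the filter on low counts, 8 rose in KPC-OG (Anxa1, Anxa2, Anxa3, Anxa4, Anxa5, Anxa8, Anxa11 and Anxa13), 1 fell (Anxa6) and 1 did not pass the test (Anxa7), by edgeR's quasi-likelihood test at an adjusted p under 0.05. Over all 14267 genes tested, 17.4% rose and 16.6% fell by the same test, 34.1% in either direction. The CPM ranges of the genotypes did not overlap for the same 8 higher members and the 1 lower member, against 17.6% of all genes in the higher and 17% in the lower direction. The median log2 fold change was 1.35 over the 10 annexins and 0.09 over all tested genes. KPC-OG 3 was the lowest of its group for 9 of the 10 annexins and for 35.3% of all genes tested. Without KPC-OG 3 the counts were again 8 higher and 1 lower, and with KPC-OG 2 left out as well they were 8 higher and 0 lower by edgeR after adjustment, with 1, Anxa6, lower at an unadjusted p under 0.05. In whole tissue, a change in how many cells of a type are present and a change in RNA per cell cannot be told apart.

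**Figure D1:**
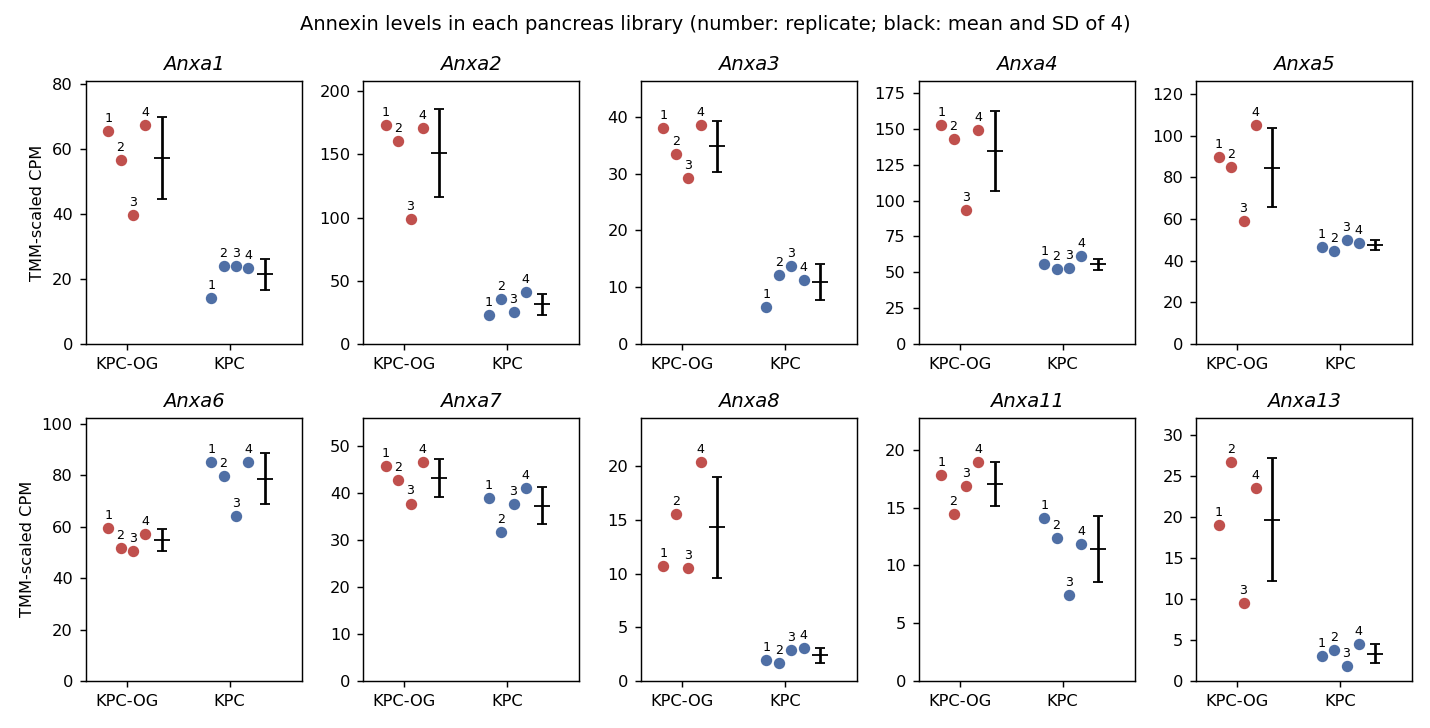
TMM-scaled CPM of the 10 annexins (vertical axes, each starting at 0) in the 4 KPC-OG libraries, left, and the 4 KPC libraries, right, numbered by replicate, with the mean and SD of each genotype in black. Anxa2 lies between 99.3 and 173 CPM in KPC-OG and between 23.1 and 40.9 CPM in KPC, the Anxa7 ranges overlap, and Anxa6 is lower in KPC-OG on this scale (higher with library sizes alone). KPC-OG 3 is the lowest point of its group in 9 of the 10 panels.

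The annexins with the largest increases also allow a look at their promoters. The 3 windows shown belong to the annexin genes with the largest increases among those listed in RefSeq's promoter table (GRCm38.p6), of which Anxa10 is the one outside the list of 10. Each runs from 5′ to 3′ on the gene's own strand and ends at the latest just before the first transcribed base that GENCODE gives the gene. Capitals mark the AP-1 letters TGANTCA and the TATA box letters TATAAA, searched on both strands, and no matches overlap.
Anxa2, chr9:69453433-69453619, plus strand: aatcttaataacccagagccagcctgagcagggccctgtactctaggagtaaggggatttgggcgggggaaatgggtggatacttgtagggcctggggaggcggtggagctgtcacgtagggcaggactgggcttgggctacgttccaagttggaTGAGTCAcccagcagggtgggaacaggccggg
Anxa8, chr14:34085729-34085978, plus strand: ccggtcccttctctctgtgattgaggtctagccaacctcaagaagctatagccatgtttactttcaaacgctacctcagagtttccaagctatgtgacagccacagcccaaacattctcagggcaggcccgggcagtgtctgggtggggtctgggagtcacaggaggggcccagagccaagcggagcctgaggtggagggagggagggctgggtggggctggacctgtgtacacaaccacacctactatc
Anxa10, chr8:62123194-62123443, minus strand: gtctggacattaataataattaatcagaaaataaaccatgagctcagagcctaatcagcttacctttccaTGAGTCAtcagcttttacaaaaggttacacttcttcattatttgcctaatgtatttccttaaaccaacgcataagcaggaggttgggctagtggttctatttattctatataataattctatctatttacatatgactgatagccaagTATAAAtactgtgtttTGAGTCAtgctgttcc

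Of the 10 annexins, 7 had an entry in that table, with 9 windows of 250 bases before a start site between them. Anxa2 had 1 AP-1 match and was the only one of the 7 with any, against 6.75% of all 32851 promoters in the table. Anxa10 had 2 AP-1 matches. TATAAA was found in the RefSeq windows of Anxa1, Anxa2 and Anxa10 and in 12.4% of all promoters. RefSeq and GENCODE differ on the starts of Anxa1 and Anxa2. The Anxa2 match lies past the printed bases, inside the GENCODE transcript, and the whole Anxa1 window lies inside the GENCODE gene and is not printed. The TEAD letters GGAATG, or CATTCC on the other strand, were found in Anxa1 alone among the annexins and in 12.6% of all promoters. The Anxa4, Anxa5, Anxa7, Anxa8 and Anxa11 windows held none of these letters. A match describes the sequence and does not show that a factor binds there.

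Anxa2, Anxa1 and Anxa11 are among the members known to dock S100 proteins, and each of these was higher in KPC-OG. Anxa2 (ENSMUSG00000032231, chromosome 9, 69453620 to 69491795, plus strand, GRCm38) forms a complex with S100a10 at the cell surface that binds plasminogen and its activator. Its level was 173, 161, 99.3 and 171 CPM in KPC-OG 1 to 4, against 23.1, 35.9, 25.7 and 40.9 CPM in KPC 1 to 4. The lowest KPC-OG library, KPC-OG 3, lay above every KPC library, and the other KPC-OG libraries were close together. Its log2 fold change was 2.26 ± 0.24 (edgeR adjusted p = 0.000465), and it exceeded that of 97.4% of the genes tested.

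Anxa1 (ENSMUSG00000024659, chromosome 19, 20373428 to 20390944, minus strand) is induced by glucocorticoids and limits inflammation through formyl peptide receptors. It had 65.3, 56.4, 39.7 and 67.3 CPM in KPC-OG 1 to 4 and 14.1, 24.0, 24.1 and 23.3 CPM in KPC 1 to 4. All KPC-OG values were above all KPC values, with KPC-OG 3 nearest to them and KPC 1 below the rest of its group. The log2 fold change was 1.42 ± 0.21 (edgeR adjusted p = 0.00134). The size of this change depends on which Anxa1 transcripts are counted, and with protein-coding transcripts alone it was 2.11 ± 0.28 (edgeR adjusted p = 0.00136). With transcript length as an offset it was 0.998 ± 0.23 (edgeR adjusted p = 0.00918), and on log2 TPM with a pseudocount of 0.1 it was 0.92 ± 0.23 (limma adjusted p = 0.018).

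Anxa11 (ENSMUSG00000021866, chromosome 14, 25842156 to 25886804, plus strand) binds S100a6 and is needed at the end of cell division. It was found at 17.8, 14.5, 16.9 and 19.0 CPM in KPC-OG 1 to 4, against 14.1, 12.4, 7.43 and 11.8 CPM in KPC 1 to 4. The groups were separated only by the gap between KPC-OG 2 and KPC 1, and KPC 3 lay well below the other KPC libraries. Its log2 fold change of 0.56 ± 0.18 was just past the threshold (edgeR adjusted p = 0.0375). The call was lost when any of KPC-OG 1, KPC-OG 4, KPC 2, KPC 3 or KPC 4 was left out, with edgeR adjusted p-values of 0.0589 to 0.0988.

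Anxa4, Anxa8 and Anxa13 are typical of epithelia, and they were also higher. Anxa4 (ENSMUSG00000029994, chromosome 6, 86736840 to 86793584, minus strand), an annexin of secretory and ductal epithelium, had 153, 143, 93.2 and 149 CPM in KPC-OG 1 to 4 and 56.0, 52.0, 53.3 and 61.1 CPM in KPC 1 to 4. The KPC libraries were nearly level, and KPC-OG 3 stood below its group but above all of KPC. Its log2 fold change was 1.27 ± 0.17 (edgeR adjusted p = 0.000953), and 1.43 ± 0.12 without KPC-OG 3 (edgeR adjusted p = 3.1e-05).

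Anxa8 (ENSMUSG00000021950, chromosome 14, 34085981 to 34100571, plus strand), which is known from squamous and ductal epithelia and acts on late endosomes, was one of the scarcest members and showed the largest fold change of the 10 in counts. It had 10.7, 15.6, 10.5 and 20.4 CPM in KPC-OG 1 to 4 and 1.91, 1.69, 2.92 and 3.04 CPM in KPC 1 to 4. No KPC library came near the KPC-OG values, which themselves differed up to the level of KPC-OG 4. This gave a log2 fold change of 2.59 ± 0.30 (edgeR adjusted p = 0.000569). An antisense gene overlaps Anxa8, but the reads assigned to it were at most 2.97 in any library.

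Anxa13 (ENSMUSG00000055114, chromosome 15, 58341471 to 58389244, minus strand), the intestinal annexin, had 19.0, 26.8, 9.49 and 23.5 CPM in KPC-OG 1 to 4, against 3.06, 3.76, 1.86 and 4.56 CPM in KPC 1 to 4. KPC-OG 3 had the lowest level of its group and KPC 3 the lowest of the other. Anxa13 had a log2 fold change of 2.54 ± 0.36 (edgeR adjusted p = 0.00118). The single Anxa13 transcript in the index is annotated as a processed transcript without a coding frame in GENCODE M21, so the value counts that RNA and says nothing of the protein.

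Duct markers were higher in KPC-OG as well. Of 8 duct markers, 6 rose, among them Krt19 with a log2 fold change of 2.46 (edgeR adjusted p = 0.000558). The summed duct marker level was 654 to 1246 CPM in KPC-OG and 321 to 465 CPM in KPC. No duct marker was at 0 in all libraries. KPC-OG 3 was the lowest of its group for 8 of 8 duct markers. The same held for 7 of 7 fibroblast and 4 of 4 smooth muscle and pericyte markers, so this is not particular to duct markers. The part of duct cells in the annexin values was not tested.

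Anxa3 and Anxa5 both bind phospholipid, Anxa3 being abundant in neutrophils and Anxa5 being the phosphatidylserine-binding anticoagulant annexin used as a probe for dying cells. Anxa3 (ENSMUSG00000029484, chromosome 5, 96793339 to 96845966, plus strand) had 38.0, 33.4, 29.1 and 38.6 CPM in KPC-OG 1 to 4 and 6.49, 12.2, 13.8 and 11.3 CPM in KPC 1 to 4. The KPC-OG libraries were close together, and the nearest KPC library, KPC 3, was far below them. The log2 fold change was 1.68 ± 0.20 (edgeR adjusted p = 0.000684). Neutrophil markers were scarce, with 13.5 to 26.6 CPM summed in KPC-OG and 5.16 to 21.2 CPM in KPC, and 1 of the 4 tested rose.

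Anxa5 (ENSMUSG00000027712, chromosome 3, 36448923 to 36475894, minus strand) was at 89.8, 84.7, 59.1 and 105 CPM in KPC-OG 1 to 4, against 46.8, 44.7, 50.2 and 48.5 CPM in KPC 1 to 4. The KPC values were almost level, while the KPC-OG values ran from KPC-OG 3, just above them, up to KPC-OG 4. The difference was 0.83 ± 0.17 on the log2 scale (edgeR adjusted p = 0.00489), and without KPC-OG 3 it was 0.99 ± 0.12 (edgeR adjusted p = 0.000255).

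Anxa6 and Anxa7 were the members that did not rise. Anxa6 (ENSMUSG00000018340, chromosome 11, 54979108 to 55033445, minus strand), the annexin with a duplicated core, acts on membrane cholesterol, caveolae and repair of the plasma membrane. Its level was 59.6, 51.9, 50.6 and 57.2 CPM in KPC-OG 1 to 4, against 85.4, 79.8, 64.2 and 85.1 CPM in KPC 1 to 4. Every KPC-OG value was below every KPC value, with KPC 3 nearest to the KPC-OG libraries.

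The Anxa6 log2 fold change was -0.52 ± 0.13 (edgeR adjusted p = 0.0133) relative to the typical gene, but with library sizes alone it was 1.23 ± 0.28 (edgeR adjusted p = 0.000721), a scaling under which the median of all genes lay 1.74 higher. On both scales Anxa6 had the lowest log2 fold change of the 10 members. Without both KPC-OG 2 and KPC-OG 3, the libraries with the most liver and gut RNA, the value was -0.41 ± 0.16 and did not pass (edgeR adjusted p = 0.0891). Anxa7 (ENSMUSG00000021814, chromosome 14, 20455260 to 20480133, minus strand), or synexin, was first known for fusing secretory granules of chromaffin cells. It had 45.7, 42.8, 37.8 and 46.7 CPM in KPC-OG 1 to 4 and 39.0, 31.7, 37.7 and 41.0 CPM in KPC 1 to 4. The groups overlapped, and the log2 fold change of 0.21 ± 0.13 did not pass the test (edgeR adjusted p = 0.217).

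Outside the list, Anxa10, an annexin of gastric epithelium, had 23.1, 20.99, 21.1 and 30.1 CPM in KPC-OG 1 to 4 and 2.10, 2.82, 4.51 and 5.57 CPM in KPC 1 to 4. The groups were far apart, and its log2 fold change of 2.67 ± 0.27 was the largest of the 12 annexin genes (edgeR adjusted p = 0.000465). Anxa9, an annexin whose calcium-binding sites are degenerate, was near the detection limit. It had 1.32 ± 0.10 CPM in KPC-OG and 0.97 ± 0.31 CPM in KPC (SD, n = 4 each). Its ranges overlapped and it did not pass the test (edgeR adjusted p = 0.337). Mindy1 overlaps the end of Anxa9 on the opposite strand and had 138 to 1015 estimated reads per library, against 3.72 to 51.9 for Anxa9, and the part of the overlap in the Anxa9 values was not tested.

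**Figure D2:**
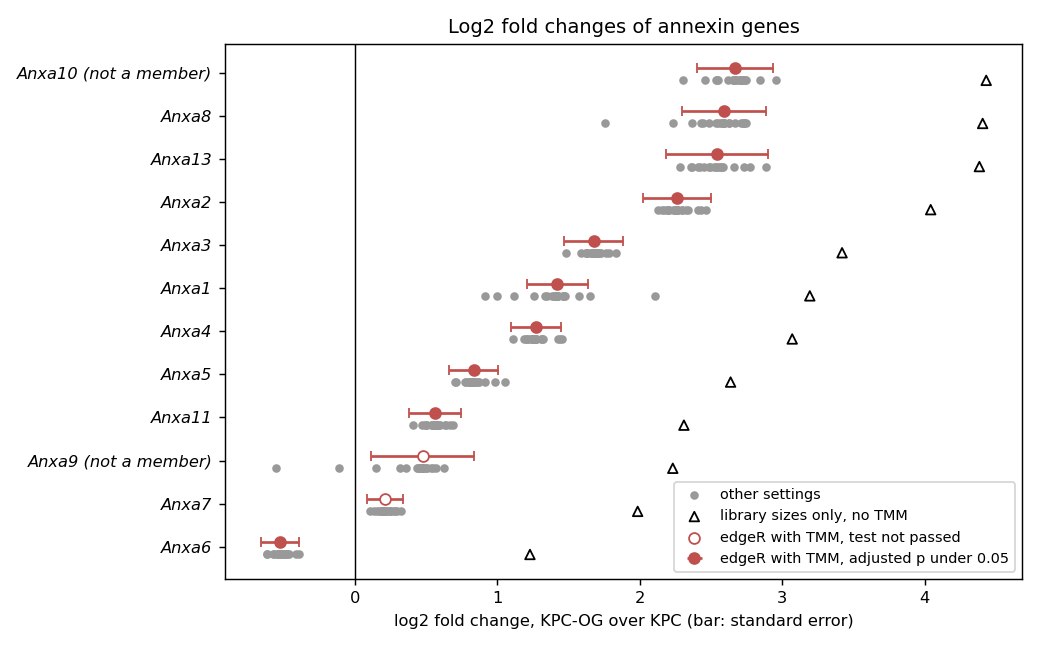
Log2 fold change, KPC-OG over KPC, of the 12 annexin genes, with the standard error as bars and filled points for an edgeR adjusted p under 0.05. Grey points give the other settings and triangles the fit with library sizes alone, which moves every gene to the right and gives Anxa6 1.23 in place of -0.52.

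Fibroblast and macrophage markers, from cell types that also express annexins such as Anxa1, Anxa2 and Anxa5, were higher in KPC-OG as well. Of 7 fibroblast and stellate cell markers 6 rose, with summed levels of 1599 to 4562 CPM in KPC-OG and 954 to 1275 CPM in KPC. All 7 macrophage markers rose, with 661 to 908 CPM in KPC-OG and 189 to 358 CPM in KPC. Of 7 acinar markers 6 fell relative to the typical gene, and the size of this depends on the scaling. In TPM, abundances without TMM scaling, their sum was 86507 to 121668 in KPC-OG and 123428 to 173252 in KPC. On that scale the ranges of Ctrb1, Ptf1a, Bhlha15 and Rbpjl overlapped between the genotypes. In KPC-OG 3, the fibroblast sum was 1599 CPM, the lowest of its group. None of these markers was at 0 in all libraries. Their part in the annexin values was not tested.

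The order of the members can be read from TPM, the authors' transcript abundances corrected for transcript length. In KPC-OG the order was Anxa2 (278 ± 119 TPM), Anxa4 (207 ± 93.0), Anxa1 (143 ± 66.1), Anxa5 (132 ± 58.9), Anxa13 (58.4 ± 32.0), Anxa6 (55.7 ± 17.3), Anxa3 (55.6 ± 19.96), Anxa7 (38.2 ± 12.9), Anxa8 (20.95 ± 12.2) and Anxa11 (17.9 ± 5.95), as mean and SD of 4 libraries. The ranges of all neighbours in that order overlapped. Within each library, however, Anxa2 was above Anxa4 and Anxa4 above Anxa1 in 4 of 4.

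In KPC the order was Anxa4 (26.7 ± 3.70 TPM), Anxa6 (25.6 ± 3.82), Anxa5 (22.9 ± 2.87), Anxa1 (21.6 ± 5.80), Anxa2 (18.2 ± 6.09), Anxa7 (10.4 ± 0.88), Anxa3 (5.67 ± 2.08), Anxa11 (3.89 ± 1.08), Anxa13 (2.96 ± 1.17) and Anxa8 (1.15 ± 0.31), again as mean and SD of 4. Only Anxa7 against Anxa3 and Anxa13 against Anxa8 had ranges that did not overlap among these neighbours. Anxa2 was thus at rank 1 in KPC-OG and at rank 5 in KPC, and Anxa6 at rank 6 in KPC-OG and at rank 2 in KPC. These orders sum all transcripts of a gene, and the places of Anxa1 and, in KPC, of Anxa4 depend on that. The place of Anxa13 rests on its processed transcript alone. In KPC, Anxa4-204, annotated for nonsense-mediated decay, had 4.52 ± 3.90 TPM. With protein-coding transcripts alone, the mean of Anxa4 in KPC lay below those of Anxa6 and Anxa5. The coding transcript of Anxa1, Anxa1-201, alone had 4.61 ± 2.38 TPM in KPC, below the coding Anxa2-201 at 16.8 ± 5.40. In KPC-OG it had 58.7 ± 23.1 TPM, below Anxa5 at 132 ± 58.9. TPM is not TMM-scaled, so these levels order the genes within a genotype, and the differences between genotypes are the CPM values above.

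The make-up of the family does not depend on how libraries are scaled. Anxa2 made up 29.0%, 27.8%, 26.4% and 26.8% of the summed TPM of the 10 annexins in KPC-OG 1 to 4, against 10.3%, 14.9%, 11.1% and 14.98% in KPC 1 to 4. The KPC-OG libraries were close together, KPC-OG 3 included, and lay far above all KPC libraries. Anxa6 made up 5.65%, 5.15%, 7.81% and 5.12% in KPC-OG 1 to 4 and 21.5%, 19.4%, 16.1% and 17.3% in KPC 1 to 4. Here the order was the opposite, with KPC-OG 3 the highest of its group but still far below KPC.

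Anxa8 and Anxa13 also took larger shares in KPC-OG without overlap. Anxa8 held 2.06% ± 0.52 in KPC-OG and 0.84% ± 0.24 in KPC, and Anxa13 held 5.49% ± 1.39 in KPC-OG and 2.10% ± 0.62 in KPC (SD, n = 4 each). Anxa5 and Anxa7 took smaller shares without overlap, with 13.1% ± 0.70 in KPC-OG and 16.6% ± 1.59 in KPC for Anxa5, and 4.003% ± 0.68 in KPC-OG and 7.59% ± 0.83 in KPC for Anxa7. Anxa5 therefore rose by its own level and yet lost share, since other members rose more. The shares of Anxa1, Anxa3, Anxa4 and Anxa11 overlapped between the genotypes, with all transcripts of a gene summed, the non-coding ones of Anxa1 included.

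**Figure D3:**
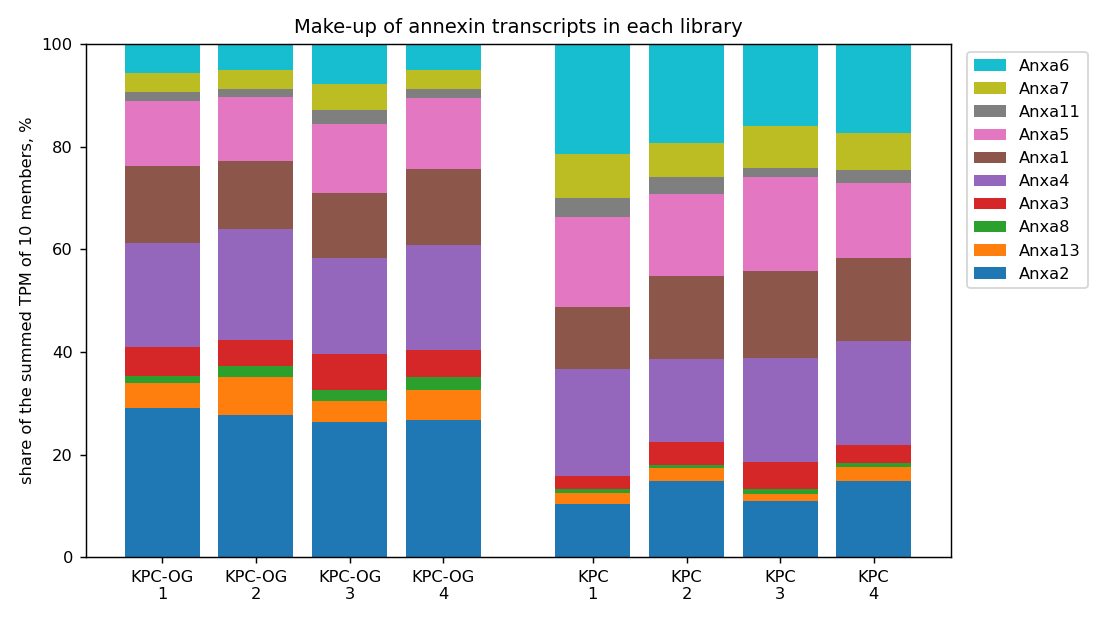
Share of each annexin in the summed TPM of the 10 members (vertical axis, percent) in the 4 KPC-OG libraries, left, and the 4 KPC libraries, right. Anxa2 takes 26.4% to 29.0% in KPC-OG and 10.3% to 14.98% in KPC, and Anxa6 takes 5.12% to 7.81% in KPC-OG and 16.1% to 21.5% in KPC.

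Ratios within a library need no scaling factor either. The ratio of Anxa2 to Anxa6 TPM was 3.38 to 5.40 in KPC-OG and 0.481 to 0.863 in KPC. The ratio of Anxa2 to Anxa4 was 1.29 to 1.43 in KPC-OG and 0.495 to 0.919 in KPC, with all transcripts of each gene summed. In KPC 2, Anxa4-204, annotated for nonsense-mediated decay, held 36.1% of Anxa4 TPM. With protein-coding transcripts alone, KPC 2 did not lie below every KPC-OG library in this ratio. The ratio of Anxa1 to Anxa5 overlapped, at 0.947 to 1.19 in KPC-OG and 0.691 to 1.10 in KPC. That overlap holds for the sum of all Anxa1 transcripts. Relative to Anxa5, the protein-coding Anxa1-201 alone was higher in every KPC-OG library than in any KPC library. The nearest libraries were KPC-OG 4, with 83.8 TPM against 197 for Anxa5, and KPC 2, with 7.30 against 25.0.

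The transcripts of Anxa1 behaved unequally. The files list 7 Anxa1 transcripts, of which Anxa1-201, with 13 exons, is the protein-coding one, Anxa1-202 a short transcript with a retained intron and Anxa1-203 a processed transcript without a coding frame. Anxa1-201 made up 39.1%, 39.7%, 54.4% and 40.2% of Anxa1 TPM in KPC-OG 1 to 4, against 14.3%, 28.9%, 24.4% and 14.4% in KPC 1 to 4. Anxa1-202 made up 3.78%, 6.07%, 12.4% and 3.77% in KPC-OG 1 to 4, against 39.9%, 31.7%, 42.6% and 32.8% in KPC 1 to 4. Neither share overlapped between the genotypes, and the share of the coding transcript was larger in KPC-OG. The KPC shares rest on few estimated reads per library, 24.2 to 69.3 for Anxa1-201 and 22.8 to 34.8 for Anxa1-202. In KPC-OG, Anxa1-201 had 464 to 1502. In TPM, which is not TMM-scaled, Anxa1-202 overlapped at 7.402 ± 1.63 in KPC-OG and 7.82 ± 1.94 in KPC, while Anxa1-201 stood at 58.7 ± 23.1 in KPC-OG and 4.61 ± 2.38 in KPC (SD, n = 4 each). Anxa1 was singled out for its transcripts after their values were seen, so no test is given.

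**Figure D4:**
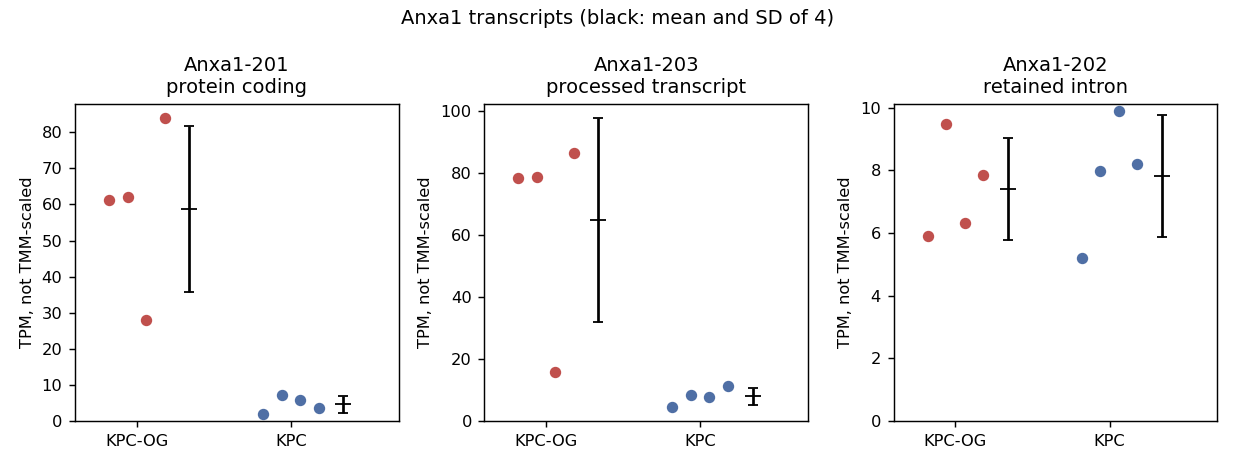
TPM, not TMM-scaled, of the main Anxa1 transcripts in the 4 KPC-OG libraries, left in each panel, and the 4 KPC libraries, right, with the mean and SD of each genotype in black. On this scale, Anxa1-201 and Anxa1-203 are higher in every KPC-OG library than in any KPC library, whereas the Anxa1-202 points overlap.

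Among the members with several main coding transcripts, no such difference passed a test. The share of the main transcript of Anxa4 (Anxa4-201) was 56.0% ± 7.98 in KPC-OG and 42.1% ± 20.6 in KPC, and that of Anxa8 (Anxa8-201) was 91.0% ± 6.97 in KPC-OG and 70.6% ± 37.9 in KPC (SD, n = 4 each). Anxa6-202 held 58.5% ± 4.15 in KPC-OG and 49.0% ± 30.5 in KPC. Anxa7-201 held 87.4% ± 7.48 in KPC-OG and 89.8% ± 12.9 in KPC. Over these 4 comparisons the exact two-sided permutation p-values were 0.314 to 0.83, and 0.8 to 0.83 after Benjamini-Hochberg adjustment, where 4 against 4 libraries allow 0.0286 at the smallest. Leaving out 1 library at a time, the difference in share, KPC-OG minus KPC, ranged from 5.37 to 20.2 percentage points for Anxa4-201, from -1.06 to 22.1 for Anxa6-202, from -7.90 to 1.06 for Anxa7-201 and from 3.73 to 30.2 for Anxa8-201. The lowest values came without KPC 2 for Anxa4-201 and Anxa6-202, without KPC 4 for Anxa7-201 and without KPC 1 for Anxa8-201. The Anxa8 shares in KPC rest on 8.97 to 17.8 estimated reads per library.

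The partners of annexins were examined in 4 lists, of which 27 of 31 genes were tested. Of these, 17 rose and 0 fell by edgeR's quasi-likelihood test, against the 17.4% and 16.6% of all genes given above, and 10 did not pass. At an unadjusted p under 0.05, 18 were higher and 1, Pdcd6ip, was lower, and DESeq2 called Pdcd6ip lower after adjustment. The median log2 fold change was 0.72 over the partner genes tested.

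All 6 of the calcium-binding partners rose, and the S100 genes rose most. S100a10, the partner of Anxa2, had 45.5, 49.8, 42.6 and 50.8 CPM in KPC-OG 1 to 4, against 10.1, 12.4, 15.1 and 10.8 CPM in KPC 1 to 4. The KPC-OG libraries were nearly level and far above KPC, and KPC-OG 3 did not stand apart. The log2 fold change was 1.97 ± 0.15 (edgeR adjusted p = 0.000186). S100a11, a partner of Anxa1, rose by 2.29 ± 0.30 (edgeR adjusted p = 0.000843) on the log2 scale. S100a6, a partner of Anxa11, rose by 2.64 ± 0.23 (edgeR adjusted p = 0.000442). S100a4, a motility-associated S100 protein that can bind Anxa2, rose by 2.27 ± 0.24 (edgeR adjusted p = 0.000465). The other calcium-binding partners are the penta-EF-hand genes Sri and Pdcd6, with log2 fold changes of 0.88 and 0.39.

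Each S100 gene can be set against its annexin within a library. The ratio of S100a10 to Anxa2 TPM overlapped, at 0.552 to 0.917 in KPC-OG and 0.542 to 1.23 in KPC. The ratio of S100a11 to Anxa1 TPM was 0.839, 0.872, 0.823 and 0.914 in KPC-OG 1 to 4, against 0.450, 0.241, 0.316 and 0.450 in KPC 1 to 4. With all Anxa1 transcripts summed, this ratio was tight in KPC-OG and higher in every KPC-OG library than in any KPC library. That sum includes the non-coding transcripts, among them the retained-intron transcript, which held 31.7% to 42.6% of Anxa1 TPM in KPC. Set against the coding Anxa1-201 alone, S100a11 did not separate the genotypes. By that ratio KPC 1 and KPC 4 lay above every KPC-OG library, and KPC 2 and KPC 3 below. KPC 1 had 5.86 TPM of S100a11 against 1.86 of Anxa1-201, and KPC 2 had 6.08 against 7.30. The highest KPC-OG library, KPC-OG 4, had 191 against 83.8, and the lowest, KPC-OG 3, had 42.1 against 27.8.

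In the list of receptor and plasmin genes, 3 of 3 tested genes rose. Plat, the tissue plasminogen activator that binds the Anxa2 complex, rose by 1.48 ± 0.27 (edgeR adjusted p = 0.00315). Plgrkt, a plasminogen receptor, rose by 1.06 ± 0.23 (edgeR adjusted p = 0.00668) and Plau, the urokinase activator, by 0.67 ± 0.16 (edgeR adjusted p = 0.00917) on the log2 scale. Plasminogen itself (Plg) and the Anxa1 receptors Fpr1 and Fpr2 did not pass the filter on low counts. Plg, a product of liver, had 2.61, 137, 106 and 0 estimated reads in KPC-OG 1 to 4 and was listed at 0 in every KPC library. Its reads were thus nearly all in KPC-OG 2 and KPC-OG 3, the libraries with the most liver and gut RNA. Fpr1 was listed at 0 TPM in every KPC library and averaged 1.27 ± 0.73 TPM in KPC-OG (SD, n = 4), and Fpr2 averaged 0.62 ± 0.28 TPM in KPC-OG and 0.28 ± 0.22 TPM in KPC (SD, n = 4 each).

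Of 10 tested genes of membrane repair and caveolae, 4 rose and 6 did not pass, with a median log2 fold change of 0.53. Capns1, the small subunit of calpain, rose by 1.15 ± 0.19 (edgeR adjusted p = 0.00182). Myof, a ferlin that acts in membrane fusion, rose by 0.98 ± 0.20 (edgeR adjusted p = 0.00461), Cavin1, a coat protein of caveolae, by 0.87 ± 0.18 (edgeR adjusted p = 0.00466) and Ahnak, a scaffold bound by the Anxa2 complex, by 1.07 ± 0.23 (edgeR adjusted p = 0.00567) on the log2 scale. The ESCRT adaptor Pdcd6ip had a log2 fold change of -0.29 ± 0.11 and CPM ranges that did not overlap, but it did not pass (edgeR adjusted p = 0.0711).

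Of 8 genes that act at exposed phosphatidylserine or release its lipid products, 4 rose and 4 did not pass, again with a median log2 fold change of 0.53. Axl, a receptor for dying cells, had 61.0, 62.0, 44.0 and 79.7 CPM in KPC-OG 1 to 4, against 22.0, 33.2, 23.9 and 25.3 CPM in KPC 1 to 4. Its groups did not overlap, and the log2 fold change was 1.24 ± 0.20 (edgeR adjusted p = 0.00158). Gas6, the bridging ligand of Axl, rose by 0.67 ± 0.15 (edgeR adjusted p = 0.00714) and the related receptor Mertk by 0.72 ± 0.24 (edgeR adjusted p = 0.0422). Pla2g4a, the cytosolic phospholipase A2 that Anxa1 is known to inhibit, rose by 1.76 ± 0.40 (edgeR adjusted p = 0.00854), although KPC-OG 3 with 6.29 CPM lay below KPC 4 with 6.75 CPM.

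**Figure D5:**
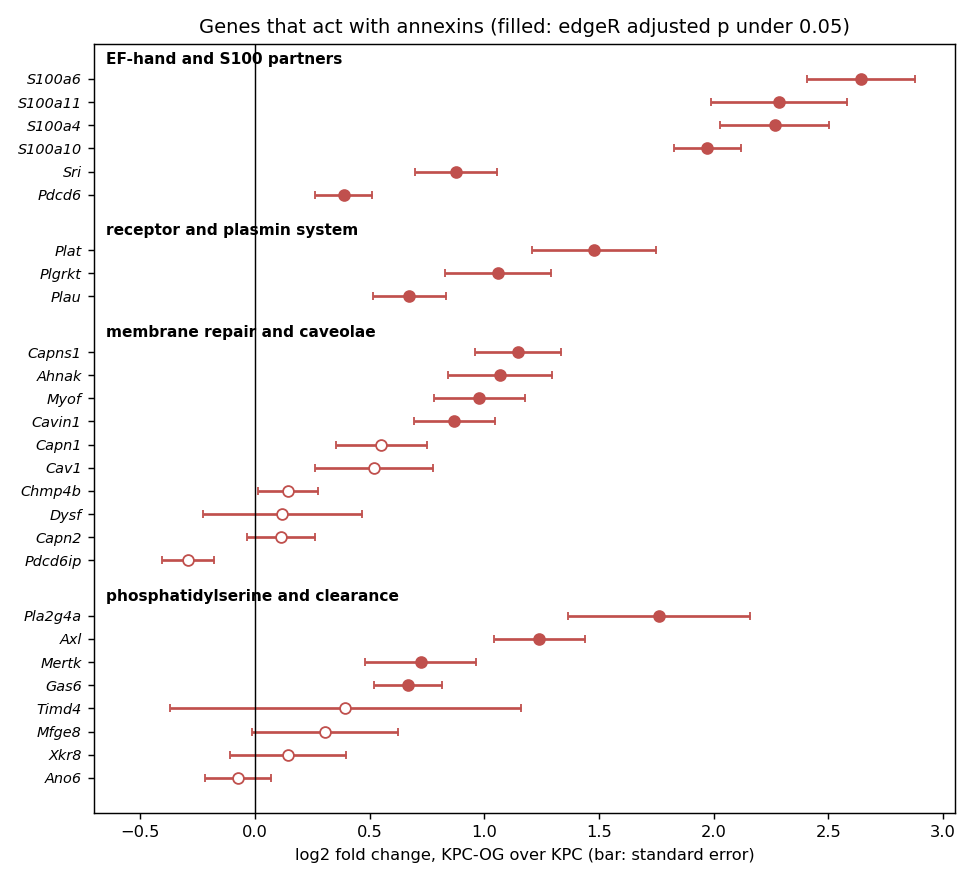
Log2 fold change (KPC-OG over KPC; bars, standard error) of the 27 tested partner genes in 4 lists, filled where the edgeR adjusted p was under 0.05. The 6 calcium-binding partners all pass, with the S100 genes between 1.97 and 2.64, while in the lists for membrane repair and for phosphatidylserine several genes lie near 0.

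Members resembled each other in pairs across the 8 libraries. Likeness was measured as the root mean square difference of log2 CPM after centring each gene on its own mean, so that 0 means the same profile. Anxa1 and Anxa3 were the closest pair of members, at 0.196, followed by Anxa4 and Anxa5 at 0.243. Among the 10 members, Anxa6 and Anxa8 were the farthest apart, at 1.599, with Anxa6 and Anxa13 at 1.59. These distances are a description over 8 libraries that fall into 2 genotypes, so much of any likeness is a like fold change.

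By the same measure, the genes nearest to Anxa2 were Ly6a at 0.149, Mmp23 at 0.151 and Paqr8 at 0.204, where the median of all genes compared was 1.23. Ly6a, a surface antigen of stem and progenitor cells and lymphocytes, had 73.8, 58.5, 37.9 and 67.1 CPM in KPC-OG 1 to 4 and 11.5, 16.9, 11.4 and 18.9 CPM in KPC 1 to 4. As with Anxa2, KPC-OG 3 was the lowest of its group and yet above all KPC libraries. Nearest to Anxa4 were Dynll1, a dynein light chain, at 0.0827, Myl6, a myosin light chain, at 0.0903 and Abcc3, an organic anion exporter, at 0.0934 (median 0.736). Nearest to Anxa1 were Fcrls at 0.11, Kctd10 at 0.112 and Myl12a, a myosin regulatory light chain, at 0.119 (median 0.845).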

How the data were processed

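Total RNA from whole pancreas was sequenced after ribosomal depletion, per the labels' protocols. The authors ran Sailfish 0.6.3 on an Ensembl release 76 index and deposited bias-corrected estimated counts and TPM for each transcript, per the file headers. Transcript lengths in bases, an "other" quantity that the authors deposited beside them, served a length check. STAR 2.0.4b, bcl2fastq, limma and edgeR also appear, with no role stated, per the submitters' processing notes.

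Gene totals are the rounded sums of the estimated counts of a gene's transcripts in GENCODE M21 (GRCm38), to which 83827 of 86127 transcripts matched. The unmatched transcripts, 1.45% to 3.04% of estimated reads in KPC-OG and 3.93% to 4.23% in KPC, were left out. Genotypes were compared with edgeR 4.0.16 (R 4.3.3) by its robust quasi-likelihood test, using TMM, filterByExpr, no block, and Benjamini-Hochberg adjustment over 14267 genes at 0.05. TMM factors were 1.14 to 2.28 in KPC-OG and 0.483 to 0.653 in KPC, a wide gap, so directions are relative to the typical gene. Reads assigned to Lars2 held 3.73% to 7.11% of the total in KPC-OG and 20.8% to 30.0% in KPC. Standard errors were derived from each gene's fold change and F statistic. Every pair of libraries within a genotype differed by more than counting noise, and all were kept as separate replicates. The precision of low genes is limited by depth, most of all in KPC. Exact permutation tests used SciPy 1.17.1. The code was tested on simulated data.

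The members and lists were chosen with earlier results of these data known. Named genes were all members, Anxa9 and Anxa10, up to 4 partner genes per list with the smallest adjusted p, any partner moving against its list, and the 3 nearest profiles (mean of at least 5 CPM) of the 3 members with the highest mean TPM. Sri, Pdcd6, Pdcd6ip, Fpr1, Fpr2, Plg and, in the closing section, Dysf and Xkr8 are outside this rule and were chosen after their values were seen. The use of strand is not stated, so overlapping antisense genes cannot be told apart. Promoter windows come from RefSeq (GRCm38.p6), whose table matched 7 of the 10 members and not Anxa3, Anxa6 or Anxa13. Alternatives were other scalings, DESeq2 1.42.0, limma 3.58.1 (voom, and trend on log2 TPM with pseudocounts of 1 and 0.1), no filter, a replicate block, a length offset, fewer genes or transcripts, thinned counts, and each library left out.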

Additional observations from a re-analysis of the deposited data

Results flagged for a closer look

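Of 50 groups of 4 values checked, 5 held a library far from the others of its genotype, where chance flags about 1 in 20. Of these, 3 concerned KPC-OG 3. Its Anxa4 level of 93.2 CPM lay below the 143 to 153 CPM of the other KPC-OG libraries, its Anxa1-203 level of 15.8 TPM below their 78.2 to 86.4 TPM, and its Anxa7 share of the summed annexin TPM, 5.02%, above their 3.59% to 3.74%. In the same library the summed duct markers were at 654 CPM, against 1052 to 1246 CPM in the other KPC-OG libraries, and the part of this in the annexin values was not tested.

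In KPC 1 the Anxa1 level of 14.1 CPM lay below the 23.3 to 24.1 CPM of the other KPC libraries. In KPC 2 the Anxa4 share of the summed annexin TPM, 16.2%, lay below their 20.2% to 20.9%.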

How the results depend on the processing

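Anxa1, Anxa2, Anxa3, Anxa4, Anxa5 and Anxa8 were past the threshold and higher in KPC-OG under all 22 alternatives, as was Anxa13 in the 20 that kept it. Members higher in KPC-OG numbered 7 to 10 over the alternatives. With library sizes alone, where the all-gene median log2 fold change lay 1.74 higher, 0 members were lower (also at an unadjusted p under 0.05), 27 partner genes were higher, all genes numbered 13078 higher and 99 lower, Anxa6 turned to 1.23 and Anxa7 passed at 1.99. Without KPC-OG 2 and KPC-OG 3, 0 members were lower by edgeR after adjustment and 1 (Anxa6) at an unadjusted p under 0.05. TPM with pseudocount 1 called 3791 genes lower, among them 2 partner genes (Dysf and Xkr8), and shifted the median by -0.21. Anxa9 passed as lower there (-0.55, limma adjusted p = 0.032) and as higher with library sizes alone (2.23, edgeR adjusted p = 0.000937), and was -0.11 with pseudocount 0.1, against 0.48 with TMM (adjusted p-values of 0.000937 to 0.824 over its alternatives). DESeq2, and protein-coding transcripts alone (added after seeing the data), each called 1 partner gene lower (Pdcd6ip), where edgeR had 0. Without the filter on low counts the median shifted by 0.26. The causes were not tested.

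Anxa1 ranged from 0.92 (TPM, pseudocount 0.1) and 0.998 (length offset) to 2.11 (protein-coding transcripts alone), apart from library sizes alone. Anxa8 was 1.75 with TPM and pseudocount 1, on a scale that understates low genes. Anxa11 lost its call in 7 of 22 alternatives, with adjusted p-values of 0.0589 to 0.129.

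With the replicate number as a block, 8 members were higher and 1 lower, with 2477 genes higher and 2418 lower in all, and no member's call changed. Same-numbered libraries correlated at 0.274, 0.275, 0.0385 and 0.0361 in their deviations from the group means. KPC-OG 1, KPC-OG 2 and KPC-OG 4 were each closest to the KPC library of the same number, and KPC-OG 3 to KPC 2 (0.0546). KPC 3 and KPC 4, however, were closest to KPC-OG 1 (0.159) and KPC-OG 2 (0.197). The numbers were not taken as pairs in the main fit, and whether same-numbered libraries share a batch was not tested.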
